A study of Mus musculus with 8 samples.

Results

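Goblet cells of the small intestine were described from 324 cell barcodes, out of 2756 barcodes kept in the small intestinal tissue library and 19539 barcodes in all 4 single-cell libraries of the series. The members were selected on measured values, not on a deposited annotation. A member had at least 500 detected genes, at most 20% of its unique molecular identifiers (UMIs, counted RNA molecules) from mitochondrial genes, at least 10 UMIs of Muc2, Fcgbp and Clca1 together per 10000, and under 20% of UMIs from the alpha-defensin genes (symbols starting Defa) of Paneth cells. The levels of those 3 genes are therefore a description of the choice, and so is the low defensin share. The members were set against 1599 other epithelial barcodes, which passed the same quality limits, missed the goblet rule and held at least 1 UMI of Epcam, an epithelial adhesion molecule.

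The series measured mouse intestine in 8 libraries: 1 single-cell library each of small and of large intestinal tissue, 1 each of small intestinal organoids alone and in coculture, and 2 Visium sections of each tissue. The strain was C57BL/6, and the sorting experiments also used Lgr5-eGFP-ires-CreERT2 mice on that background, which carry a green fluorescent protein reporter and an inducible recombinase at the stem cell gene Lgr5. Digested tissue was sorted for living cells and enriched for LGR5+ stem cells and for CD31+ PDPN+ LYVE1+ lymphatic endothelial cells, so shares of barcodes describe the sorted library and not the tissue. Organoids, epithelial cultures grown from stem cells, were at passage 1; 16 wells of each culture were pooled, and the coculture partner was not named in the labels. Age, sex and the number of animals were not given in the sources used here. Sections came from 10 µm cryosections, and those of the same tissue are technical duplicates. Each single-cell condition was 1 library, so no p-value is given, and tissue cannot be told apart from library. All intervals are exact 95% intervals that cover counting error only.

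Goblet cells are the mucus-secreting cells of the intestinal lining. They arise from crypt stem cells that escape Notch signalling and switch on the transcription factor Atoh1, and they fold, glycosylate and store the gel-forming mucin Muc2 in granules that are released toward the lumen. Agr2 is a protein disulphide isomerase that mucin folding requires, Tff3 is a secreted trefoil peptide, Fcgbp and Clca1 are secreted mucus proteins, and Zg16 is a lectin that binds Gram-positive bacteria.

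Promoter sequences are shown for 5 genes with a high ratio and a motif match, chosen after the values were seen: the mucus genes Muc2 and Fcgbp and the secretory-pathway genes Pdia5, Kdelr3 and Hspa5. Each is the 250 bases before the annotated transcription start, 5′ to 3′ on the gene's strand, from RefSeq on GRCm38.p6, and the capitals mark every match of 3 motifs. Muc2 lies on the plus strand (chr7:141690090-141690339), Fcgbp on the plus strand (chr7:28070986-28071235), Pdia5 on the minus strand (chr16:35490874-35491123), Kdelr3 on the plus strand (chr15:79516158-79516407) and Hspa5 on the plus strand (chr2:34771840-34772089). The matches are CAGCTG in Muc2, Fcgbp and Pdia5, ACGTGG or its complement CCACGT in Pdia5 and Kdelr3, and the ER stress element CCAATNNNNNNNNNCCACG in Hspa5.
Muc2: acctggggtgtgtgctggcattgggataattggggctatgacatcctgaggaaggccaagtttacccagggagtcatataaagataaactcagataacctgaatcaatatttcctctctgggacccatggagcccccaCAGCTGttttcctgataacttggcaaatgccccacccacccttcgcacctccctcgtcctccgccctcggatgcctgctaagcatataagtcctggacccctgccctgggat
Fcgbp: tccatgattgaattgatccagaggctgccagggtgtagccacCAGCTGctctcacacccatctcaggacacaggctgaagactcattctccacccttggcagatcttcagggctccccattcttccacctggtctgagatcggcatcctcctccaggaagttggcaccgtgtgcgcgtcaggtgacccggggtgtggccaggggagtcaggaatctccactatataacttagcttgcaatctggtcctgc
Pdia5: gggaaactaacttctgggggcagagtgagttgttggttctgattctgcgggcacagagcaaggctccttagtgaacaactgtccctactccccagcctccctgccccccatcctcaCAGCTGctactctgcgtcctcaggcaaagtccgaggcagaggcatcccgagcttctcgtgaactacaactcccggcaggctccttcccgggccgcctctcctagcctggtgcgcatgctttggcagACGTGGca
Kdelr3: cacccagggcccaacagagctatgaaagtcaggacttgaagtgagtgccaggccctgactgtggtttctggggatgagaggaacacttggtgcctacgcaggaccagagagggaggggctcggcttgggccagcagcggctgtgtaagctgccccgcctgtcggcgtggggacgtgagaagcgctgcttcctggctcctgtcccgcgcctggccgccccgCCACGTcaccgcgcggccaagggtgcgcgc
Hspa5: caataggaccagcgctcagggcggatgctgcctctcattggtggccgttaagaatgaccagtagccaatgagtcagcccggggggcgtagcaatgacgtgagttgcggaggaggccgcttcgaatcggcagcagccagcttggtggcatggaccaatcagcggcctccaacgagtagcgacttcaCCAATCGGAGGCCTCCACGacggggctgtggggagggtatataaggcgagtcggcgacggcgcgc

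Both strands were searched in every 250-base window of the promoter table, which held 32851 windows of 27025 genes. CAGCTG, which reads the same on both strands and is a form of the E-box bound by basic helix-loop-helix factors such as Atoh1, was present in 13.0% of all windows. By list, its share was above that background in goblet markers (3 of 6 windows), secreted mucus (4 of 9), granules (9 of 30), secretory lineage regulators (9 of 34) and sugar and sulphate donors (4 of 26). It was also above it in enteroendocrine markers (6 of 20), tips and shedding (4 of 18), absorptive enterocyte genes (4 of 25) and the macrophage, leukocyte, blood endothelial and fibroblast markers (1 of 5 each). It was below the background in other goblet-related lists, namely O-glycosylation (2 of 32), membrane mucins (0 of 5), mucin folding (2 of 20), ER stress (2 of 30), ER translocation (1 of 24) and ER-to-Golgi traffic (2 of 39), and in the cell cycle list (2 of 30). Of the 20 genes with the highest ratio in the members, 11 had a window, and 3 of their 12 windows held CAGCTG (Fcgbp, Muc2 and Sval1). ACGTGG, the core sequence bound by the unfolded protein response factor Xbp1, was present in 6.91% of all windows, in 8 of 24 windows of the ER translocation list, in 13 of 39 of the ER-to-Golgi list, in 6 of 20 of the folding list and in 7 of 30 of the ER stress list. Its share was also above that background in Notch receptors and targets (3 of 6), O-glycosylation (5 of 32), Paneth markers (2 of 12), tips and shedding (2 of 18) and granules (3 of 30). The T and NK (1 of 4), fibroblast (1 of 5) and lymphatic endothelial (1 of 7) markers were above it too. So, by less, were the donor, antimicrobial, cytokine, absorptive and stem lists. ACGTGG was present in 0 of 9 windows of the secreted mucus list. The ER stress element was present in 0.113% of all windows and in 7 of 30 windows of the ER stress list; its last 5 bases are also the first 5 of CCACGT, so the motifs can overlap. The other motifs searched were CATCTG with its complement CAGATG, in 14.4% of all windows and 3 of 9 of the secreted mucus list, and TATAAA with TTTATA, in 12.4% and 1 of 9; neither is marked above. A match is a description of letters and not a binding site, and binding was not measured.

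The 324 members held 6189019 UMIs, from 824 to 82325 per barcode with a median of 21291. Their score, the summed UMIs of Muc2, Fcgbp and Clca1 per 10000, ran from 10.02 to 1817.5 with a median of 173.9. The score formed a wide range, with 60 members between 10 and 20, 42 between 20 and 50, 26 between 50 and 100, 46 between 100 and 200, and 150 at 200 or over. These bands are ranges of a continuous value and not cell types. Members made up 11.8% of the kept barcodes of this sorted library.

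Members close to the limit rested on few molecules. The 20 members nearest inside it scored 10.02 to 11.51 from a median of 2 rule-gene UMIs, and 5 of them held Epcam. The 20 barcodes nearest outside it scored 9.21 to 9.99 from a median of 1.5 such UMIs, and 10 of them held Epcam. A further 71 barcodes passed the score but had 20% or more defensin UMIs and were not members.

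Depth divided the members. The 224 members of at least 5000 UMIs, called deep members here, had a median of 26066 UMIs and a median score of 248.5, and 222 of them held Epcam. The 100 members under 5000 UMIs had a median of 1738 UMIs, a median of 4 rule-gene UMIs and a median mitochondrial share of 11.7% against 5.14% in the deep members, and 50 of them held Epcam. Macrophage markers summed to 3552 CPM (UMIs scaled to 1000000 per set of barcodes) in the shallow members and 227.5 CPM in the deep members. The 7 lymphatic endothelial markers summed to 1914 and 60.5 CPM, and the leukocyte markers to 1006 and 44.4 CPM. Of all members, 52 held no Epcam, with a median of 2.5 rule-gene UMIs. The part of these markers in the shallow members' values was not tested, and values for the deep members alone are given beside some of those that follow. The plot of depth against score shows the shallow members without Epcam along the limit.

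**Figure D1:**
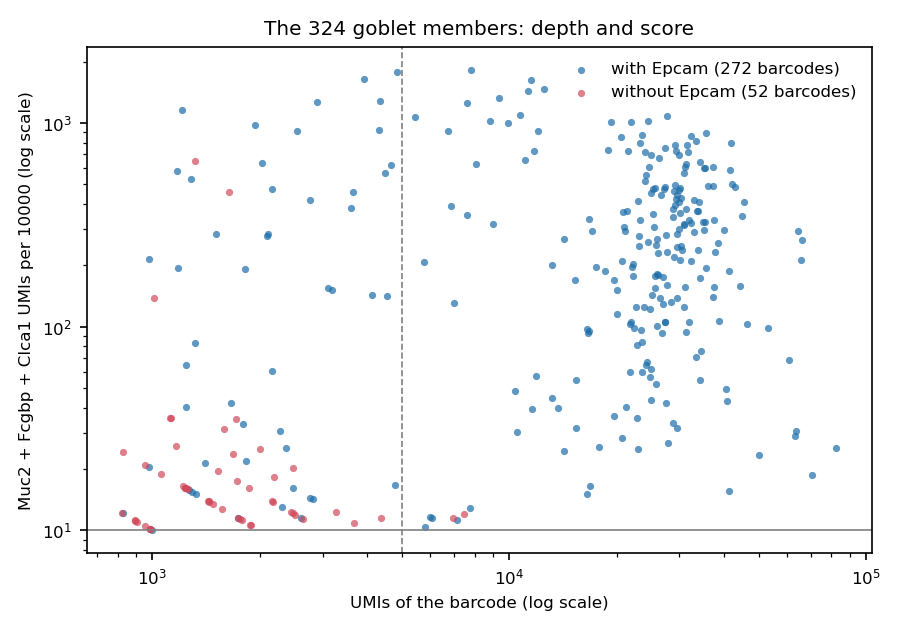
UMIs of each member (horizontal, log scale) against its summed Muc2, Fcgbp and Clca1 UMIs per 10000 (vertical, log scale), 1 point a barcode, coloured by whether Epcam was detected; the solid line is the limit of 10 and the dashed line is 5000 UMIs. Of the 52 members without Epcam, most lie at low depth near the limit, and the 150 members with a score of 200 or over lie mainly at high depth.

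Goblet markers were high in the pooled members. Of the 10 goblet markers, 3 are the rule genes; the other 7 were all at least 2-fold higher in the members than in the other epithelial barcodes, with a median log2 ratio of 4.95, and over the deep members alone the median of the 7 was 4.97. With the rule genes the medians were 6.04 and 6.07. The 11 deep members with a score of 10 to 20 went against the label: Spdef had a UMI in 2 of them, their median Tff3 and Agr2 levels were 402 and 440 CPM, and their median summed Paneth marker level was 189905 CPM. The pooled values describe mainly the members with higher scores. The 5 markers named for the class are Muc2, Clca1, Fcgbp, Agr2 and Tff3, of which the first 3 chose the members. Tuft markers were lower for 10 of 10 tested genes (median log2 ratio -4.00) and enteroendocrine markers for 12 of 16 (median -3.01, but -1.22 without likely doublets). Of 14 Paneth markers, 8 were lower and 1, the matrix metalloprotease Mmp7, was higher; the other epithelial barcodes included the Paneth barcodes, and without those the Paneth marker median was 3.22 in place of -1.72.

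Mucus and secretory genes made up a large part of the members' RNA. Zg16 took 5.70% of all member UMIs, Tff3 3.34%, Spink4 3.15%, Fcgbp 1.61%, Agr2 1.54% and Muc2 1.02%. In the other epithelial barcodes Zg16 took 0.0130% and Spink4, a Kazal-type peptide also found in Paneth cells, 0.332%. The defensin Defa24 took 1.72% in the members and 7.19% in the others. UMIs were not scaled to gene length, so these shares are no ranking of genes by transcript number.

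Zg16 was spread most widely among the secreted genes printed here: in deep members it ran from 0 through a median of 154.2 to 4152.4 UMIs per 10000. Tff3 ran from 0 through 285 to 1244.9, and Agr2 from 1.21 through 136.8 to 416. Muc2 ran from 0.484 through 86.0 to 531.7, Fcgbp from 0 through 107.6 to 1142.6, and Clca1 from 0 through 34.0 to 398. The highest Agr2 value was far nearer its median than the highest Zg16 value was to its own.

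In pooled CPM, Zg16 was at 56995 in the members and 130 in the other epithelial barcodes, a log2 ratio of 8.78 (95% interval 8.74 to 8.81). Tff3 had a log2 ratio of 6.75 (6.72 to 6.77) and Agr2 of 6.49 (6.45 to 6.52). Fcgbp, Clca1 and Muc2, which chose the members, had log2 ratios of 8.25, 8.12 and 5.60. Across 12744 genes with at least 50 UMIs in both sets together, 8.51% were at least 2-fold higher in the members and 17.7% at least 2-fold lower, and the median log2 ratio was -0.11. Of the called genes, 32.5% were higher; with mitochondrial, ribosomal protein and defensin genes left out of the total this was 22.1%, and the median of all genes was -0.34. Among deep members alone, 8.37% were higher and 21.1% lower.

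Free RNA was read in barcodes that should lack these genes. After each barcode was thinned to 2000 UMIs, which kept 263 members and 1541 other epithelial barcodes, Muc2 had a UMI in 93.9% of members (94.8% before thinning) and in 16.9% of the others, against 11.3% of 231 B-type and 11.8% of 212 lymphatic-type barcodes without Epcam. Those B-type and lymphatic-type sets had median depths of 2802 and 3580 UMIs before thinning. Zg16 had a UMI in 75.7% of members, 24.5% of the others, 34.6% of B-type and 30.2% of lymphatic-type barcodes. The other epithelial level of Zg16, 130 CPM, lay below the 235.8 CPM of B-type and 224.9 CPM of lymphatic-type barcodes. The other epithelial barcodes were deeper, with a median of 24363 UMIs. Before thinning, Zg16 had a UMI in 85.3% of them, 51.4% of B-type and 55.15% of lymphatic-type barcodes. Fcgbp was at 52.7 CPM in the others against 80.2 and 73.3 CPM, with unthinned shares of 57.2%, 24.5% and 23.9%. CPM and shares depend on depth here, so how much of the others' level was free RNA was not tested. The transcription factor Spdef, by contrast, had a UMI in 28.5% of members, 1.17% of the others, 0 of 231 B-type barcodes, which allows a share of up to 1.30% (3 barcodes of 231, the limit used here for a count of 0), and 0.472% of lymphatic-type barcodes.

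The 20 genes with the highest ratio went beyond mucus. Fer1l6, a ferlin family membrane protein, was at 159.5 CPM against 0.825 (log2 ratio 7.59), and the calpain protease Capn9 at 121.5 against 0.894 (7.09). Bcas1 was at 213.0 against 1.67 (6.99), and Tpsg1, a membrane-anchored tryptase, at 360.2 against 2.98 (6.92). The secreted phospholipase Pla2g10 had a log2 ratio of 6.57, Serpina1b, an alpha-1-antitrypsin of a multigene family whose copies can share reads, 6.58, the Rab15 effector Rep15 5.69, and the aspartyl protease Bace2 5.44. The defence proteins Retnlb, which is resistin-like, and Mptx1, a pentraxin, had 6.47 and 6.02. Before thinning, Fer1l6 had a UMI in 57.1% of members and 1.75% of the others, and Rep15 in 64.5% and 9.01%. After thinning Fer1l6 had a UMI in 27.0% of members and 0 of 1541 others, which allows up to 0.195% (3 barcodes) at that depth only, and Rep15 in 41.4% and 1.30%.

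**Figure D2:**
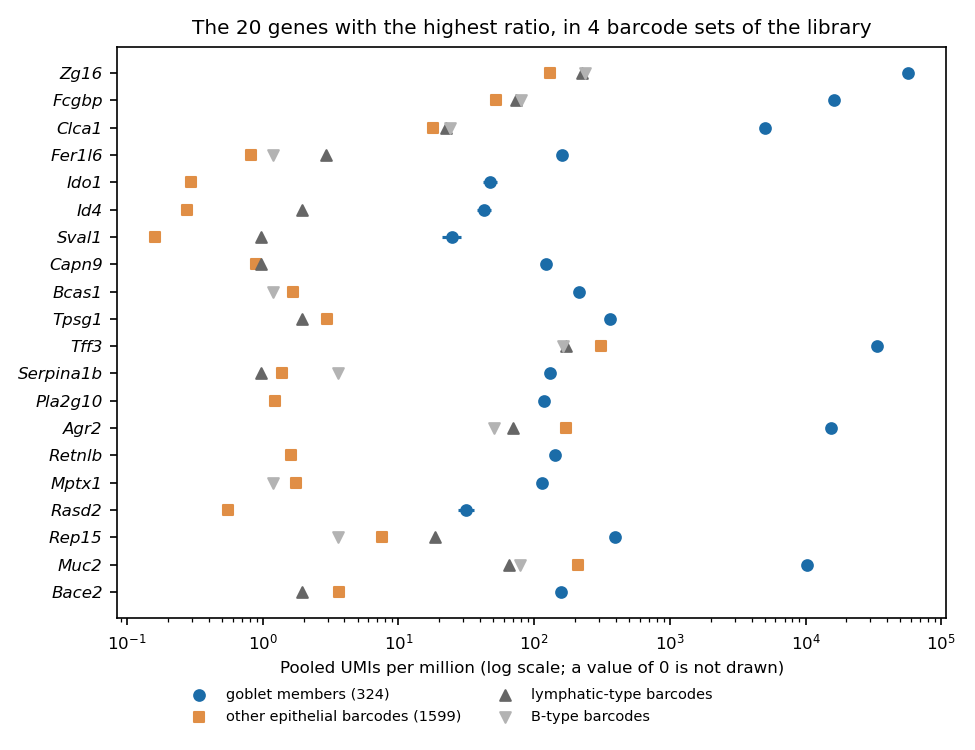
Pooled CPM (horizontal, log scale) of the 20 genes with the highest ratio, in the 324 goblet members, the 1599 other epithelial barcodes and the B-type and lymphatic-type barcodes without Epcam; lines on the member points are exact 95% counting intervals, mostly hidden by the points, and a value of 0 is not drawn. For Zg16 the member point is at 56995 and the other epithelial point at 130, below the B-type and lymphatic-type points.

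Some of these genes were high in few members. Retnlb had a UMI in 41 members and at least 10 UMIs in 19, and 23.8% of its UMIs came from 1 member. Of those 19 members, 16 also held at least 10 UMIs of the angiogenin-type antimicrobial ribonuclease Ang4, as did 65 of all 324 members, and 5 held at least 10 of Mptx1. Ido1, a tryptophan-degrading enzyme, reached 10 UMIs in 9 members, and Sval1, a secreted protein named for its likeness to a seminal vesicle antigen, in 4. Mptx1 reached 10 UMIs in 17 members. Without the barcode of each set with most UMIs of the gene, the log2 ratios were 6.43 for Retnlb, 7.24 for Sval1 and 6.64 for Mptx1. Each of these genes was therefore spread over several members, but not over most of them.

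The secreted mucus list had 10 of 13 tested genes higher and 0 lower (median log2 ratio 6.47), against 8.51% higher among all genes. The list includes the 3 rule genes, and without them 7 of 10 were higher (median 5.87). Besides those and the genes above, the kallikrein Klk1 was at 1066 CPM against 27.6 (5.27). Lypd8, a bacteria-binding surface protein, was at 0.82, and the Paneth-associated lectin Itln1 was at -0.93, neither past 2-fold. Among membrane mucins Muc3a was higher (2.57) and Muc3 lower (-1.74), while Muc13 was at 0.99. The 5 membrane mucins had a median of -0.65 with 2 lower, and over deep members a median of -1.02 with 3 lower. With both sets limited to at least 5000 UMIs the median was -0.28, so its size depended on which barcodes were compared. Muc3 and Muc3a belong to the same mucin family, so counting could split reads between them.

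Genes that attach sugars to mucins were higher as a list in 18 of 29 cases and lower in 5 (median 1.71). Gcnt3, which builds branched core structures, was at 251.6 CPM against 11.5 (log2 ratio 4.45). The initiating transferases Galnt5 and Galnt12 had 4.26 and 3.99. C1galt1, which makes core 1, and its chaperone C1galt1c1 had 2.46 and 2.73. The sialyltransferase St3gal4 ran the other way, at 140.9 CPM against 389.3 (-1.47). The donor list, with the enzymes and transporters for sugar nucleotides and sulphate, had 17 of 23 genes higher and 0 lower (median 1.43). The sulphotransferase Chst4 led it at 82.1 CPM against 2.45 (5.06), and Gfpt1, the entry enzyme of hexosamine synthesis, was at 545.0 against 123.3 (2.14).

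The folding and export machinery was also higher, by smaller factors. Of 19 tested genes for mucin folding and disulphides, 12 were higher and 1 lower (median 1.18). The disulphide isomerase Pdia5, whose promoter is shown above, was at 178.7 CPM against 8.87 (4.33), the sulphydryl oxidase Qsox1 at 398.0 against 46.9 (3.08), and Txndc5 at 687.8 against 95.4 (2.85). For ER translocation, 17 of 30 were higher and 0 lower (median 1.09), in a narrow range from 0.34 for the signal peptidase subunit Sec11a to 1.48 for the translocon subunit Sec61b. For ER-to-Golgi traffic, 22 of 43 were higher and 1 lower (median 1.00). Kdelr3, a receptor that returns escaped ER proteins, was at 65.8 CPM against 3.97 (4.05), and Mia3, which loads large cargo, at 245.8 against 63.2 (1.96). The medians of these last lists lie at the 2-fold line, so their counts move with small changes of scale; among deep members they were 18 of 30 and 24 of 43.

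The ER stress list had 18 of 33 genes higher and 0 lower (median 1.07). Its members differed widely. Ern2, the epithelial form of the stress sensor IRE1, was at 256.1 CPM against 10.0 (log2 ratio 4.67), while the general form Ern1 was at 17.1 against 11.99 (0.51). The membrane-bound factors Creb3l1 and Creb3l4 had 4.76 and 4.24. The chaperone Hspa5 was at 1251 CPM against 389.7 (1.68), Xbp1 had a log2 ratio of 1.07, and the lectin chaperone Canx at 309.9 against 340.8 (-0.14). Cytosolic ribosomal protein genes, for comparison, had 0 of 81 higher and 0 lower, with a median of 0.0074.

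Granule and exocytosis genes were higher in 18 of 31 cases and lower in 2 (median 2.35). The synaptotagmin-like protein Sytl2 had a log2 ratio of 4.88, and the granule GTPases Rab27a, Rab27b and Rab3d had 3.70, 3.55 and 2.85. The calcium sensor Syt7 had 3.46. Nlrp6, an inflammasome sensor described in goblet cell secretion, went the other way at 24.6 CPM against 152.8 (-2.64, interval -2.88 to -2.41). After thinning it had a UMI in 2.66% of members, 20.2% of the other epithelial barcodes, 3.03% of B-type and 1.42% of lymphatic-type barcodes. Before thinning these shares were 18.8%, 59.7%, 3.16% and 2.21%, at unlike depths. Whether the members' level was free RNA was not tested.

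**Figure D3:**
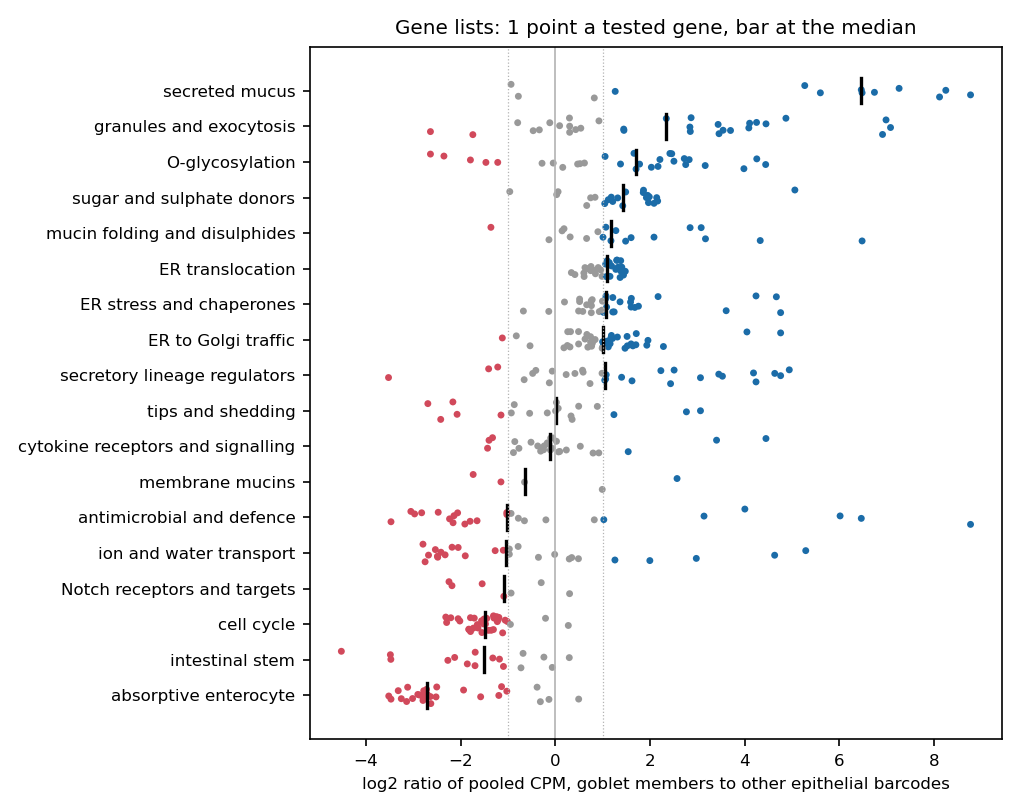
Log2 ratio of pooled CPM between goblet members and other epithelial barcodes (horizontal), 1 point a tested gene, for each gene list (vertical); blue points are at least 2-fold higher, red at least 2-fold lower, grey between, black bars the list medians and dotted lines 2-fold. Secreted mucus has its median at 6.47, the ER lists lie near 1, and the absorptive list has its median at -2.71.

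Regulators of the secretory lineage were higher in 16 of 30 cases and lower in 3 (median 1.06). Spdef, which drives goblet maturation, was at 170.3 CPM against 5.53 (log2 ratio 4.95), and Atoh1 at 203.4 against 8.16 (4.64). The zinc finger repressor Gfi1 had 4.19, the forkhead factor Foxa3 3.53, and Klf4, a factor of goblet differentiation, 3.07. Klf4 had a UMI in 54.0% of thinned members and also in 44.8% of lymphatic-type and 6.49% of B-type barcodes. The Notch ligands Dll1 and Dll4 were higher (3.46 and 2.51). After thinning Dll4 had a UMI in 3.80% of members and 19.8% of lymphatic-type barcodes, and Dll1 in 11.4% and 0.943%. Spib, a tuft- and B-cell factor, was at -3.52, Sox4 at -1.41 and Hnf4g, an enterocyte factor, at -1.22.

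Notch receptors and targets were lower in 4 of 7 tested cases and higher in 0 (median -1.09), against 17.7% lower among all genes. Notch1 was at 4.04 CPM against 19.2 (log2 ratio -2.25), Nrarp at -1.54 and Hes1 at -0.93. Absorptive enterocyte genes were lower in 24 of 28 cases (median -2.71): the fatty acid carrier Fabp1 was at -2.87, the apolipoprotein Apoa1 at -3.14 and sucrase-isomaltase Sis at -3.32. Krt20, a keratin of differentiated cells, was at 0.49. Stem cell genes were lower in 11 of 16 cases (median -1.51), with Olfm4 at 86.8 CPM against 965.0 (-3.48) and Lgr5 at 7.76 against 25.1 (-1.70); the sort enriched LGR5+ cells among the others. Cell cycle genes were lower in 32 of 35 cases, with a median log2 ratio of -1.48 (-2.65 without likely doublets), and Mki67 was at 78.0 CPM against 191.6 (-1.30).

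Ion and water transport was lower in 13 of 26 cases and higher in 5 (median -1.04). The 5 higher genes included the potassium channel Kcnk6 (5.29), the chloride cotransporter family member Slc12a8 (4.64) and the carbonic anhydrase-related protein Car8 (2.98). The chloride channel Cftr was at -2.18 and the exchanger Slc26a3 at -2.49. Antimicrobial genes were lower in 14 of 25 cases and higher in 6 (median -1.02), the lower ones including the lectins Reg3b (-2.97) and Reg3g (-1.91) and the cytokine Il18 (-2.06), the higher ones the chemokines Ccl6 (3.14) and Ccl9 (4.01). Over deep members the antimicrobial median was -1.63, with 13 lower. Cytokine receptors and signalling had 3 of 28 higher and 3 lower (median -0.12), and over deep members 3 higher and 5 lower (median -0.23). The muscarinic receptor Chrm1 (18.6 CPM against 0.848, log2 ratio 4.45) and the death receptor family member Tnfrsf21 (3.41) were higher, and the interleukin-13 receptor chain Il13ra1 was at 0.09.

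The 10 genes with the lowest ratio were genes of other epithelial classes and an immunoglobulin. Rgs13, Alox5ap and Dclk1, which mark tuft cells, had log2 ratios of -5.80, -5.04 and -5.03, and the hormones Cck, Ghrl and Gip -5.56, -5.39 and -5.30. Ighg1 had -5.45. Nrgn, Pygl and Alox5 had 2 UMIs each in the members. These genes were high in a small share of the other epithelial barcodes, where Dclk1 had a UMI in 7.40% after thinning. Without likely doublets, Ighg1 was at -0.61, Gip at -1.84, Cck at -3.41 and Ghrl at -3.72. Likely doublets are here the 195 kept barcodes with the highest doublet scores, a number set in advance. Whether those removed were doublets or cells of these classes was not tested.

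Other cell types left traces in the members. Lymphatic endothelial markers, of which the sort enriched the source cells, were past 2-fold in 0 of 7 cases over all members and lower in 6 of 7 over deep members. Macrophage markers were lower in 7 of 9 cases over all members and in 9 of 9 over deep members. B and plasma cell markers summed to 7894 CPM, of which 52.6% lay in 1 barcode, and fibroblast and muscle markers to 17.1 CPM. The B and plasma list was lower for 4 of 9 genes over all members (median -0.89) and for 6 of 8 over deep members (median -1.80), and without likely doublets the median was -2.92. It had 1 gene higher, Ighm at a log2 ratio of 4.63, but 97.0% of its UMIs (4043 of 4167) came from 1 member of 53209 UMIs, and without the top barcodes the ratio was -0.21. The 195 kept barcodes with the highest doublet scores (7.08%, the number set by the expected rate) included 46 of the 324 members (14.2%). Without those 195, 278 members were left, 9.33% of genes were higher and the Zg16 log2 ratio was 9.06.

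The deep members were described by bands of the score, which the 3 rule genes set. Zg16 was at 447 CPM in the 11 deep members with a score of 10 to 20, 198 in the 24 at 20 to 50, 1138 in the 23 at 50 to 100, 6474 in the 39 at 100 to 200 and 99415 in the 127 at 200 or over. Agr2 was at 660, 6104, 11811, 19617 and 18232 CPM in these bands, so it was highest at 100 to 200. Tff3 was at 936, 7194, 14764, 18932 and 49293. Spdef was at 20.8, 159, 222, 201 and 167 CPM, and Atoh1 at 88.4, 188, 176, 245 and 212, so the lineage factors varied much less than Zg16 above a score of 20. In the lowest band Spdef rested on 4 UMIs, 58.9% of the Tff3 UMIs lay in 1 barcode (420.7 CPM without it) and 51.2% of the Zg16 UMIs in 1 barcode (278.2 CPM without it), and 52.8% of the Zg16 UMIs at 50 to 100 lay in 1 barcode, without which that level was 588.0 CPM.

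The 11 deep members in the lowest band had a median mitochondrial share of 15.4%. Their Lyz1, the Paneth lysozyme, was at 10467 CPM against 3173 in the next band and 604 in the highest, but 69.6% of its UMIs lay in 1 barcode, and without it the level was 5016 CPM. Defa24 was at 84125 CPM against 25010 and 9214, with 64.1% in 1 barcode and 47636 CPM without it. Krt20 was at 322 CPM there from 62 UMIs, of which 83.9% lay in 2 barcodes, and 8 of the 11 had 0 or 1 UMI of it. In the next bands Krt20 was at 69.2, 65.3, 165 and 462 CPM; in the first of these 58.3% of its UMIs lay in 1 barcode, and without it the level was 29.5 CPM.

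**Figure D4:**
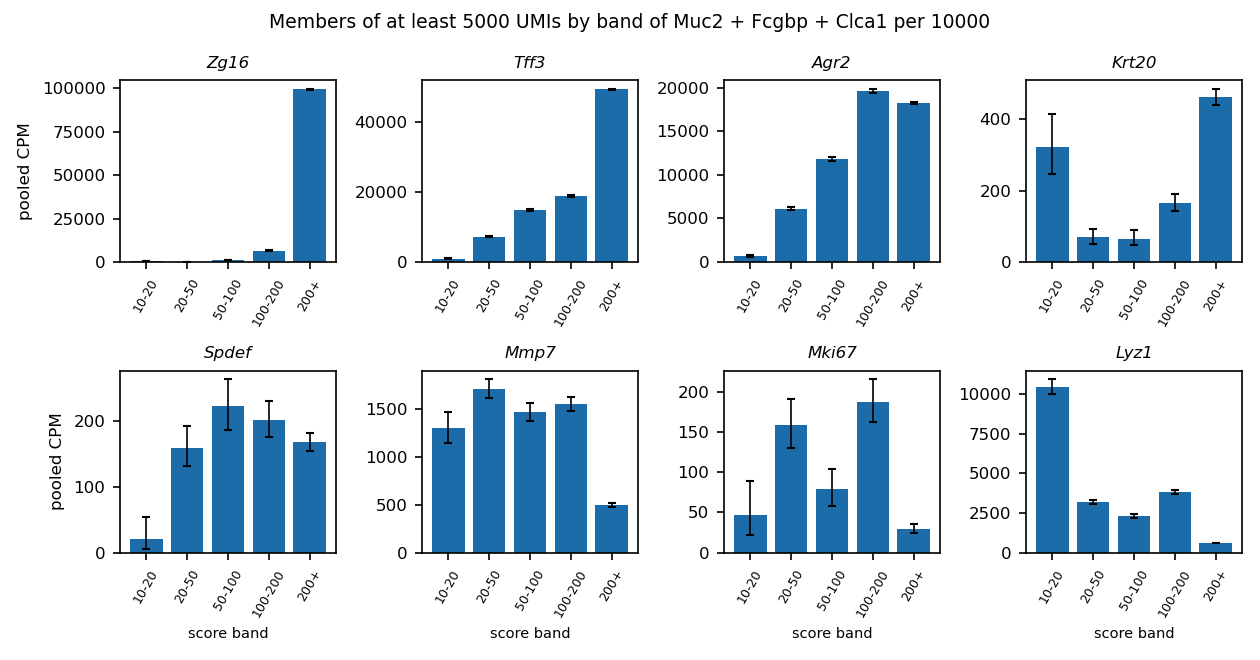
Pooled CPM of 8 genes (bars, vertical axes from 0) in deep members by band of summed Muc2, Fcgbp and Clca1 UMIs per 10000 (horizontal; 11, 24, 23, 39 and 127 members), with exact 95% counting intervals. Zg16 reaches 99415 in the highest band, Agr2 levels from 100 on, and Mki67 and Mmp7 are lowest in the highest band among bands over 20.

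The 127 deep members at 200 or over were set against the 47 at 20 to 100, which differ in the score by choice. Among 6988 tested genes 4.95% were at least 2-fold higher and 11.6% lower (median -0.27). Cell cycle genes were lower in 20 of 20 tested cases (median -2.83), with Stmn1, a tubulin-binding protein of dividing cells, at 11.97 CPM against 213.6 (-4.16). The cell cycle levels of the 47 rested on part of them: 23 had a UMI of Mki67, and 3 held 58.2% of its UMIs, without which its level was 55.7 in place of 121.0 CPM. The summed cell cycle list was at 3236 CPM in the 47 with a median over barcodes of 1279, and 3 barcodes held 35.8% of it. Without the 3 barcodes of each set with most cell cycle UMIs, 12 genes were tested and 12 were lower (median -2.53). Stem cell genes were lower in 7 of 9. Paneth markers were lower in 8 of 14 and higher in 1 (median -1.16). Granule genes were higher in 12 of 28 and lower in 1 (median 0.67). The ER translocation list had 0 of 30 and the ER-to-Golgi list 0 of 42 past 2-fold in either direction, with medians of -0.03 and 0.06. Pooled levels of these export genes were thus similar in the mucus-poor and the mucus-rich deep members.

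Beyond the mucus genes, the highest ratios in the mucus-rich members included the calcium-binding protein S100a6, at 2282 CPM against 206.0 (log2 ratio 3.47, interval 3.29 to 3.65), and the annexin Anxa3, at 58.4 against 3.06 (4.25). Gsta1, a glutathione transferase of differentiated epithelium, was at 62.8 against 3.06 (4.36). The secreted ribonuclease Rnase1 was lower, at 81.4 against 807.8 (-3.31). By defensin share, Rnase1 was at 1465 CPM in deep members with 5% to 20% and 121.5 CPM in those under 1%. Ighm had the lowest ratio, -7.88, but 99.7% of its UMIs in the mucus-poor members lay in 1 barcode. The B and plasma markers summed to 630 CPM in the mucus-rich and 32851 in the mucus-poor members, where 97.2% lay in 2 barcodes and the level without those was 995.7 CPM. Of these markers 6 of 6 tested were lower in the mucus-rich members, and without the 2 top barcodes of each set 0 of 3 were past 2-fold.

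Levels were also compared member by member. Over the 224 deep members, which share 1 library and differ in depth, Fcgbp and Tff3 per 10000 UMIs had a Spearman rho of 0.88 (Pearson r 0.81), Zg16 and Krt20 0.77 (0.57), and Clca1 and S100a6 0.80 (0.66). Muc2 had a rho of 0.20 with Agr2 (r 0.01) and 0.08 with Spdef (r 0.00). Fcgbp and Mmp7 had -0.55 (r -0.36), and Spink4 and Mmp7 0.54 (r 0.56). These are descriptions across cells of 1 library, and 2 genes of a fixed total are not free of each other. Muc2, Fcgbp and Clca1 also chose the members, which cuts the range of their sum. The deep members include 31 with 5% to 20% defensin UMIs, whose part in these values was not tested.

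Defensin share divided the deep members as well, again by a quantity of the rule. It was under 1% in 155, between 1% and 5% in 38 and between 5% and 20% in 31, with a median of 0.43%, near the 0.57% and 0.56% of B-type and lymphatic-type barcodes. Between the 31 and the 155, 2.27% of 7321 genes were at least 2-fold higher and 10.6% lower. Paneth markers were higher in 14 of 14 cases, which the choice sets in part. Lyz1 was at 11619 CPM against 367 (log2 ratio 4.99), the matrix metalloprotease Mmp7 at 3323 against 381 (3.12), the regenerating lectin Reg4 at 2672 against 180 (3.89), and Spink4 at 62526 against 25023 (1.32). Zg16 was at 22244 against 68934 (-1.63), with 81.5% of the former in 2 barcodes and 4550 CPM without them, and the Muc2 level was 7345 against 10951. Atoh1 was close in both, at 217 and 201 CPM. Cell cycle genes were lower in 19 of 23 (median -1.81).

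Against the 199 barcodes with 20% or more defensin UMIs, called Paneth barcodes here, the median log2 ratio of all tested genes was 1.94; defensins took a median of 50.8% of the UMIs of a Paneth barcode. Defensin genes are near-identical copies, so the counts of single ones are uncertain. Relative to that median, Zg16 stood at 6.18 and Fcgbp at 5.41, while Defa21 stood at -8.53 and the pentraxin Mptx2 at -7.20. Of 9001 tested genes, 8286 were at least 2-fold higher and 93 lower in raw ratio. The raw log2 ratios were 8.11 for Zg16, 3.58 for Muc2, 1.08 for Spink4, -1.18 for Mmp7 and -4.45 for Lyz1. Spink4, Mmp7 and Lyz1 thus lay below the median of 1.94.

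The same rule found 1984 of 6188 kept barcodes (32.1%) in the large intestine, 23 of 540 (4.26%) in organoids alone and 43 of 1037 (4.15%) in coculture. The tissue libraries shared 25 barcodes and 0 of them were members. Each library had its own depth and, in tissue, its own sort, so these shares are not compared further. Within the large intestine 7.40% of 14522 genes were at least 2-fold higher in barcodes of the rule than in other epithelial barcodes, within organoids alone 7.94% of 11200, and within coculture 10.1% of 12053. Of the 20 genes with the highest ratio in the small intestine, 17 were not rule genes. Of those tested elsewhere, 16 of 16 were at least 2-fold higher in the large intestine, 7 of 7 in organoids alone and 13 of 13 in coculture. The organoid sets were also high for markers of other secretory classes. Enteroendocrine markers were higher in 9 of 11 cases and lower in 0 in organoids alone, and higher in 8 of 15 and lower in 3 in coculture. Paneth markers were higher in 7 of 12 and 10 of 13, and lower in 2 in each. Nlrp6 was lower in all 3, with log2 ratios of -2.50, -1.50 and -2.06.

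Small intestinal and colon goblet barcodes differed in level for several mucus genes. Of 12346 tested genes, 6.51% were at least 2-fold higher in the small intestine and 13.4% lower (median -0.18). Zg16 was at 56995 CPM against 6998 (log2 ratio 3.03), Tff3 at 3.02, Fcgbp at 3.32 and the guanylin precursor Guca2a at 2.06. Muc2 was at -0.20, Agr2 at -0.33, Spink4 at 0.33, Spdef at -0.42 and Atoh1 at -0.47, none past 2-fold. Muc2 and Fcgbp are rule genes in both sets, and the median score was 173.9 in the small intestine and 100.3 in the colon. Zg16 and Tff3 were highest in the highest score band of the deep small intestinal members. The part of the score in these differences was not tested. Lower in the small intestine were Mptx1, at 115 CPM against 15897 (-7.12), Retnlb, at 142 against 7369 (-5.70), Sval1 (-7.01) and Reg4, at 531 against 3864 (-2.86). The anion channel Best2 had 0 UMIs in the small intestinal members and 3914 in the colon set, a log2 ratio of -7.44 or lower with the 0 set to 3 UMIs over the set, and the posterior homeobox gene Hoxb13 had 0 and 6999.

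By list, absorptive genes were higher in the small intestinal members in 20 of 24 cases (median 3.67) and cell cycle genes lower in 28 of 35 (median -1.43). After thinning, Fabp1 had a UMI in 10.6% of the small intestinal members, 12.1% of B-type and 9.43% of lymphatic-type barcodes, and Apoa1 in 18.6%, 13.0% and 16.0%. Before thinning, at unlike depths, Fabp1 had 43.8%, 15.8% and 16.9%, and Apoa1 58.95%, 14.2% and 28.3%. The part of free RNA in the members' absorptive values was not tested. The absorptive list summed to 3126 CPM in the members against 469 and 536 in those sets. ER translocation had 0 of 30 and ER-to-Golgi traffic 2 of 43 past 2-fold, all on the higher side. O-glycosylation had 3 higher and 9 lower of 29. Mmp7 was higher than in the colon set by 4.28, Krt20 by 3.15, Dll1 by 2.09 and Serpina1b by 8.67 on the log2 scale. Tissue and library cannot be told apart here, and defensin RNA differed too, with Defa24 at 17242 CPM in the small intestinal members and 4 UMIs in the colon set. Markers of other cell types also differed. Fibroblast and muscle markers were lower in 9 of 9 cases and higher in 0. Leukocyte markers were higher in 4 of 5, lymphatic endothelial in 5 of 7 and B and plasma in 5 of 8, with 0 lower in each.

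**Figure D5:**
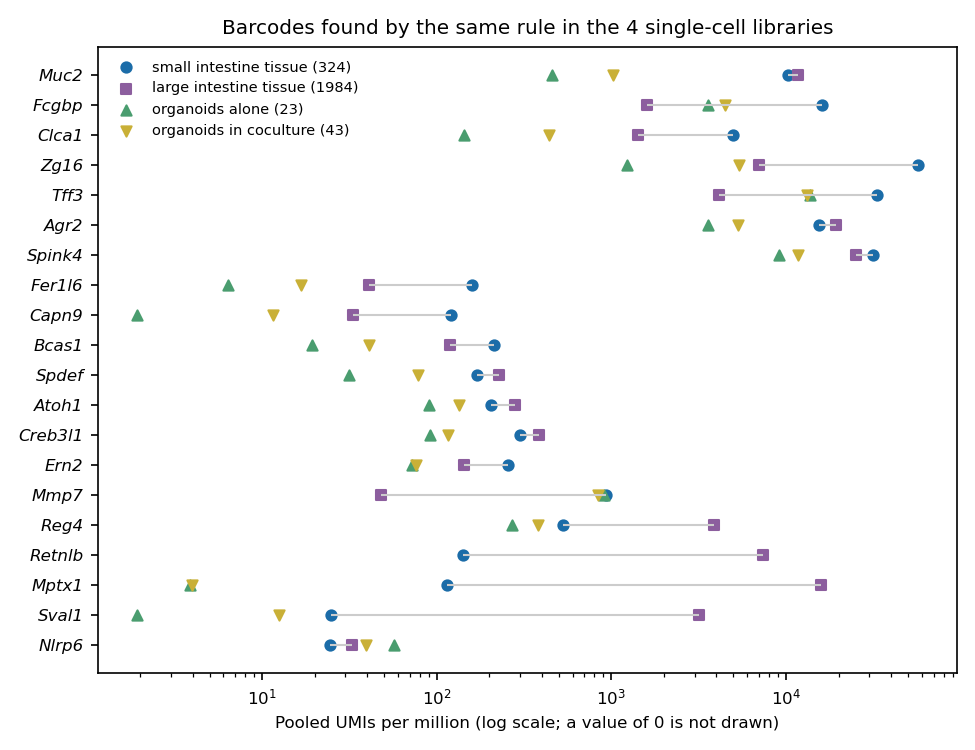
Pooled CPM (horizontal, log scale; 0 not drawn) of 20 genes in barcodes of the goblet rule from small intestine, large intestine, organoids alone and organoids in coculture; grey lines join the tissue values. Muc2, Agr2 and Spdef lie close in both tissues, Zg16 and Fcgbp are higher in the small intestine, and Mptx1, Retnlb and Sval1 are higher in the large intestine. Muc2, Fcgbp and Clca1 chose the barcodes of every set.

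In organoids, Muc2 was at 458 CPM in the 23 barcodes grown alone and 1021 in the 43 in coculture, against 10217 in the tissue members. Zg16 was at 1222 and 5366, Tff3 at 13757 and 13232, Fcgbp at 3567 and 4493, and Mmp7 at 911 and 834. Retnlb had 0 UMIs in both organoid sets. Sox4, lower than in other epithelium by 1.41 in the tissue members, was at 0.83 and 1.81 in the organoid sets. Mmp7 was higher in barcodes of the rule than in other epithelium by 3.72 in the large intestine, 3.04 in organoids alone and 3.59 in coculture, against 1.03 in the small intestine, where the other barcodes included Paneth barcodes. Against other organoid epithelium, the enteroendocrine marker median was 2.90 in organoids alone and 2.26 in coculture, and the Paneth marker median 1.90 and 2.72. In the tissue members the enteroendocrine median was -3.01. Each organoid set was 1 library of few barcodes.

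Visium sections, in which a spot holds several cells, gave the same genes at tissue level. Fcgbp was at 2465 and 2445 CPM in the small intestinal sections and 3821 and 3786 in the large, and Zg16 at 2360 and 2372 against 7277 and 7858. Zg16 was thus higher in the colon sections although it was lower in the colon goblet barcodes; sections sum over all cells. Mptx1 was at 86.4 and 56.2 against 5537 and 5134, and Sval1 at 12.8 and 10.8 against 899 and 923, both higher in the large intestine in the sections and in the goblet barcodes. Mmp7 was at 227 and 107 CPM in the small intestinal sections and about 0.5 in both large ones. In bulk or spot sums, fewer cells of a type and less RNA per cell cannot be told apart.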

How the data were processed

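RNA was measured in 4 single-cell and 4 Visium libraries of mouse intestine. The deposited values are UMI counts for each gene and barcode, with no normalization. Per the submitters' processing notes, the authors used Cell Ranger 6.0.1 and, for Visium, Space Ranger 1.2.1, with build mm10; the annotation release was not given in the sources used here. The 2 added reporter features were left out.

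Counts of a set of barcodes were summed and scaled to CPM of the set. A log2 ratio compares pooled CPM, with counts under 3 set to 3 and an exact conditional binomial interval. A gene was tested, meaning compared, with at least 50 UMIs in both sets together and called at 2-fold. With 1 library per condition there was no replicate and no p-value was computed. The ratio and interval steps were tested on simulated data. The members and the gene lists were chosen with earlier results of these data known. Named genes are the 20 highest and 10 lowest ratios with at least 100 UMIs in the higher set, the genes of the lists, and for Paneth and colon comparisons 8 genes a side; genes named outside this rule were chosen after their values were seen. B-type barcodes held at least 10 UMIs per 10000 of Cd79a, Cd79b and Ms4a1 together, and lymphatic-type barcodes as many of Lyve1, Ccl21a, Mmrn1 and Reln, all without Epcam. Shares were taken after thinning to 2000 UMIs. Doublets were kept in the values reported. An alternative left out the barcodes with the highest doublet scores, in the number of the expected rate (Scrublet in scanpy 1.11.5, 7.07% expected). Python 3.11.15, numpy 2.4.6, scipy 1.17.1 and pandas 2.3.3 were used. The kept small intestinal barcodes had a median of 12145.5 UMIs. Values of genes at 0 or few UMIs are limited by that depth.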

Additional observations from a re-analysis of the deposited data

How the results depend on the processing

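The number of members ran from 222 to 324 over the alternatives, the share of genes at least 2-fold higher from 6.33% to 10.9% and the share lower from 13.7% to 23.6%. The 30 genes named by size were recomputed under each alternative, giving 479 values. All 479 kept their direction and 478 were still at least 2-fold. The exception was Ighg1, at -0.61 without likely doublets. The 30 genes were chosen as the extremes of this same ratio and include the rule genes. Their direction could hardly turn, so this count is a description and no test. Of these values 365 stayed inside the main counting interval and 114 did not. Setting the defensin limit to 5%, which moves members with 5% to 20% defensin UMIs into the other set, lowered the Zg16 log2 ratio to 6.94. Leaving the Paneth barcodes out of the other epithelial set raised Muc2 to 8.10 and Agr2 to 8.53 and turned the Paneth marker median from -1.72 to 3.22; the secreted mucus median was then 8.03. With genes from 10 UMIs on tested, the granule median was 1.45. Of 449 list medians, 434 kept their direction. The restrictions to members of at least 5000 UMIs, to both sets of at least 5000 UMIs, to values without the barcode with most UMIs of the gene, and to bands without their 1 to 3 top barcodes were chosen after seeing the data. Cck was at -3.41 without likely doublets. For CPM without mitochondrial, ribosomal protein and defensin genes, the cause of the shift in the split of higher and lower genes was not tested. With 1 library no replicate could be left out. No paired analysis was possible because the members come from 1 library, and Visium sections that share a number come from different tissues.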
